A study of Mus musculus with 16 samples.

Results

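Bone morphogenetic protein 4 (BMP4) was given to mouse trophectoderm stem cells (TSC) cultured without any other cell type, and the 2 libraries with BMP4 (TSC_BMP4) were compared with the 2 without it (TSC). They were chosen by their column labels and are 4 of the 16 libraries of the series, which has 8 groups of 2. The TSC carry the red fluorescent protein RFP. Both groups grew on plates coated with 5% Matrigel, and their medium contained 12.5 ng/ml FGF4 together with 500 ng/ml heparin, so the untreated cells also received FGF4. Treated cultures had BMP4 during the final 24 hours and all were collected on day 3; no label states the concentration. Single colonies were picked for the Smart-seq2 protocol, which amplifies RNA from very small inputs. The other groups used here are induced pluripotent stem cells (iPSC, carrying GFP) alone and the red TSC part of structures assembled from both cell types, each without and with BMP4 in the same medium. No strain, line or age is given in the labels, and nothing in them tells whether replicates were separate cultures. The p-values speak only of the spread among the 16 libraries of the series, which may be technical.

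BMP ligands bind pairs of type I and type II receptors, which phosphorylate SMAD1, SMAD5 and SMAD8; with SMAD4 these switch on targets such as the Id genes and the pathway's own inhibitors. In the early mouse embryo the extraembryonic ectoderm, the tissue that trophoblast stem cells represent, makes BMP4 itself and sends it to the epiblast. Trophoblast stem cells are kept undifferentiated by FGF4, which acts through the ERK kinases, and in its absence they turn into giant cells, spongiotrophoblast and syncytiotrophoblast.

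Levels are the deposited FPKM (fragments mapped, scaled to transcript length and library size), and read depth is unknown. The FPKM values of a library summed to 666077 and 764532 without BMP4 and to 915070 and 709397 with it, and 10504 to 10927 genes reached 1 FPKM in each of the 4 libraries. Mitochondrially encoded genes took 7.81% and 4.57% of the total without BMP4 and 1.29% and 3.53% with it, so the groups did not overlap in that share; its part in the results was not tested. The 2 untreated TSC libraries differed by more than 2-fold in 2083 of 13406 genes (Pearson r across genes 0.942), the most of any pair within a group. TSC_BMP4 replicate 1 was closer to a library of another group than to its own replicate. Against its own replicate 1262 of 13406 genes differed by more than 2-fold (Pearson r across genes 0.956), but against replicate 1 of the untreated assembled TSC part only 642 did (r = 0.969). Both of those libraries had the predicted gene Gm14039 as their highest value, at 31765 and 25504 FPKM. So did replicate 2 of the untreated assembled TSC part, at 12305 FPKM. Genes are not independent replicates, so these correlations are descriptions. The main counts of calls are also given without TSC_BMP4 replicate 1. On the second principal component the untreated TSC libraries scored 55.6 and 59.3, TSC_BMP4 replicate 2 scored 15.2 and replicate 1 scored -18.5.

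**Figure D1:**
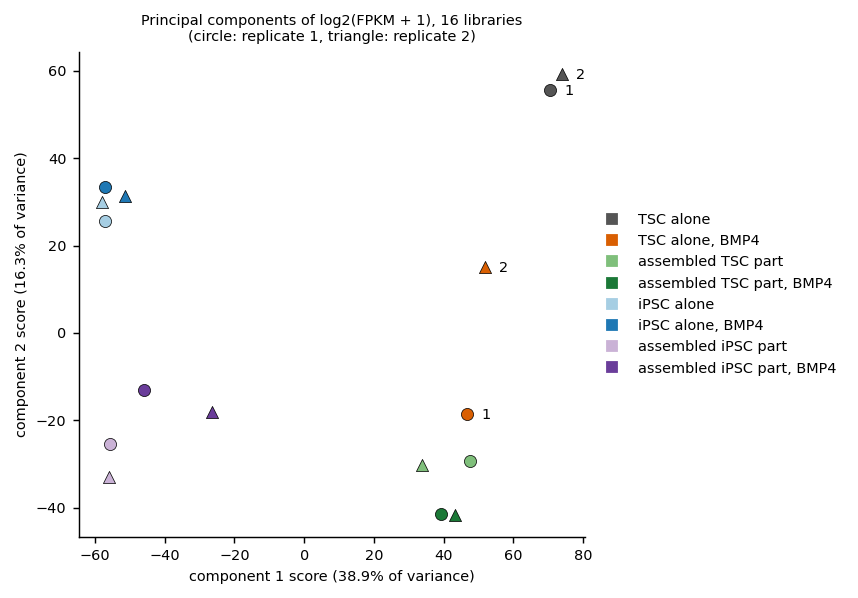
First and second principal component scores of log2(FPKM + 1) over the genes tested, 1 point per library for 16 libraries, colored by group; circles are replicate 1 and triangles replicate 2, and the 4 libraries of TSC cultured alone are numbered. TSC_BMP4 lies between untreated TSC and the assembled TSC parts on the second component, replicate 1 (-18.5) nearer to the assembled parts than replicate 2 (15.2).

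The labelled cell type was checked against markers. Krt18, a keratin of simple epithelia, stood at 2947 and 1705 FPKM without BMP4 and at 704 and 656 with it, and the other trophoblast genes Tfap2c, Gata3 and Hand1 were between 14 and 301 FPKM in all 4 libraries. The summed level of 10 trophoblast markers was 7012 and 3916 FPKM without BMP4 and 1551 and 1708 with it. Most of the untreated sum came from Krt18, Krt8 and Plac1, so it mainly follows these abundant genes. They were lower in both treated libraries, as were Tfap2c, Gata3 and Ascl2, while Eomes and Elf5 were higher and Cdx2 and Hand1 overlapped. The stem cell markers Cdx2 (0 and 3.89 FPKM) and Eomes (0.219 and 0.0844 FPKM) were near 0 in the untreated libraries. Of the pluripotent markers that define iPSC, Pou5f1 was at most 1.03 FPKM in the 4 libraries against 326 and 219 in untreated iPSC, and Fgf4 was listed at 0 in all 4. Utf1, Dppa4, Zfp42 and L1td1 from the same list of 8 were present in TSC too, and the list summed to 205 and 297 FPKM without BMP4 and to 478 and 246 with it, against 1129 and 1169 in untreated iPSC. The 6 primitive endoderm markers summed to 0.827 and 1.44 FPKM without BMP4 and to 8.05 and 9.37 with it, mostly from Dab2 and Gata4, with Sox17 at 0 in both treated libraries. The sums of 4 mesoderm, 7 fibroblast and 4 endothelial and blood markers stayed at or below 2.70 FPKM. In bulk libraries, fewer cells of a type and less RNA per cell cannot be told apart.

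With BMP4, 856 of 13406 tested genes rose and 769 fell (limma on log2(FPKM + 1), Benjamini-Hochberg adjusted p under 0.05). These 1625 genes are 12.1% of those tested, 6.39% higher and 5.74% lower, and the median difference of all genes was 0.02. The 2 treated libraries were both above the 2 untreated ones in 25.5% of genes and both below in 22.5%. The spread was estimated over all 16 libraries, and the untreated TSC pair differed more than any other pair within a group (2083 genes over 2-fold). The shared estimate can therefore be too small for TSC, and its p-values too low. Fitted to only the 4 libraries compared, limma called 3 genes, 1 of them among the 1625. Fitted to only the 8 of TSC origin it called 378, and with library quality weights 428. Without TSC_BMP4 replicate 1 there were 569 calls, 384 higher and 185 lower, and 508 of them were among the 1625. Leaving out each of the 4 libraries in turn, 391 genes kept the call every time and 156 lost it every time, and the direction held for all 1625 under every alternative run. That direction was largely fixed in advance. The runs with no filter, quality weights, a replicate block or fewer groups leave the difference between group means unchanged. Leaving out 1 library cannot reverse a gene whose groups do not overlap. When totals were rescaled without predicted and mitochondrial names, 676 genes were called higher and 1006 lower, with a median of all genes at -0.08. Called genes also differed in transcript length: the median was 2389 bases for those that rose, 3628 for those that fell and 2932.5 for all 13382 genes with a length. The part that length has in the calls was not tested.

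**Figure D2:**
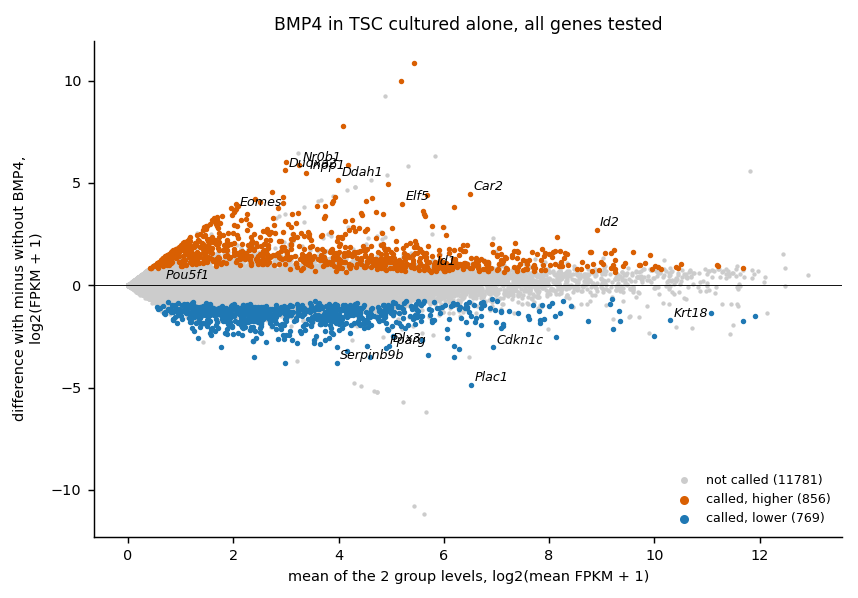
Difference between TSC with and without BMP4 on the log2(FPKM + 1) scale (vertical) against the mean of the 2 group levels as log2(mean FPKM + 1) (horizontal), 1 point per gene for 13406 genes. Orange points are the 856 genes called higher and blue points the 769 called lower; Nr0b1, Duoxa2, Inpp1 and Ddah1 lie high and Plac1 low.

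Among 15 tested BMP-SMAD targets, 3 rose (Id2, Bambi and Smad6) and none fell, against 6.39% higher and 5.74% lower of all genes. No set test was run, and the median difference was 0.28. The median was -0.20 without TSC replicate 1 and 0.75 without TSC replicate 2. Id2, an inhibitor of basic helix-loop-helix factors, stood at 110 and 270 FPKM without BMP4 and at 1538 and 854 with it. Both treated libraries were above both untreated ones, a log2 difference of 2.72 ± 0.42 (SE; limma adjusted p = 0.00178). Bambi, a decoy receptor that dampens BMP signalling, went from 1.76 and 0.0231 FPKM to 9.12 and 15.4, a log2 difference of 2.94 ± 0.42 (limma adjusted p = 0.00134). Both genes kept the call whichever library was left out. Smad6, an inhibitory SMAD, was at 1.18 and 1.78 FPKM without BMP4 and at 4.51 and 4.09 with it, 1.10 ± 0.30 on the log2 scale (limma adjusted p = 0.0321); without TSC_BMP4 replicate 1 the adjusted p was 0.137.

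The other direct targets did not pass. Id1, the usual readout of BMP signalling, stood at 7.16 and 105 FPKM without BMP4 and at 61.8 and 42.7 with it, so both treated libraries lay between the untreated ones. Its log2 difference was 0.83 ± 0.88 (limma adjusted p = 0.586), 2.68 without TSC replicate 2 (adjusted p = 0.0215) and -1.02 without TSC replicate 1 (adjusted p = 0.323). Id3 was at 13.5 and 37.6 FPKM without BMP4 and at 45.3 and 16 with it, a difference of 0.25 ± 0.76. Msx2, a homeobox target of the pathway, overlapped in the same way, at 8.16 and 63.2 against 21.9 and 39.3 FPKM. Gata2 and Gata3, trophoblast transcription factors that are also BMP targets, were lower in both treated libraries but missed the threshold (limma adjusted p of 0.0727 and 0.0972).

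The promoter sequences of 2 of the targets that rose and of Id3 are shown, because Id and inhibitory SMAD genes are direct SMAD targets. They are the 250 bases before the annotated start from RefSeq on GRCm38.p6, 5′ to 3′ on the strand of the gene, at chr12:25096093-25096342 (minus strand) for Id2, chr9:64022060-64022309 (minus strand) for Smad6 and chr4:136143572-136143821 (plus strand) for Id3. Capitals mark GGCGCC, a GC-rich SMAD motif that reads the same on both strands.
Id2: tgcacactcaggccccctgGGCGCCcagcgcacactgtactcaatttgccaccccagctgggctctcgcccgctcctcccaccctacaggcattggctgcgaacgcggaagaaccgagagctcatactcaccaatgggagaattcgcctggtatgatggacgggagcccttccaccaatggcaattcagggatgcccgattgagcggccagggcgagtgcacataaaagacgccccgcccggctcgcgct
Smad6: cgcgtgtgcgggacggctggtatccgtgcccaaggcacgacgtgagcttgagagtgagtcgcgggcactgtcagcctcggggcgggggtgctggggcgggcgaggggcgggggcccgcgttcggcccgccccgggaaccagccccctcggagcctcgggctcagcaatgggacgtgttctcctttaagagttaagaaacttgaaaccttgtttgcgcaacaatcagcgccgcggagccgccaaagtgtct
Id3: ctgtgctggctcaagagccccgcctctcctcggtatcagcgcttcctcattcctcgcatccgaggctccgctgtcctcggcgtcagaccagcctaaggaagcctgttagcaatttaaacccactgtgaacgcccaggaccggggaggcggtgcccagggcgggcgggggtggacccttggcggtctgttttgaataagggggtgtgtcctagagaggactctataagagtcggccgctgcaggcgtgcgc
Id2 held 1 copy, beginning 231 bases before the start, and Smad6 and Id3 held none in this window. The motif occurs in 3149 of 32851 such windows (9.59%), so a match describes the letters only.

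The pathway's own components moved in both directions. Of 6 tested BMP ligands 2 rose, Bmp4 and Gdf6, against 6.39% of all genes. Bmp4 was at 0.267 and 0.623 FPKM in untreated TSC and at 16.4 and 13.8 with BMP4, with no overlap, a log2 difference of 3.48 ± 0.82 (limma adjusted p = 0.017). Without TSC_BMP4 replicate 1 its difference was 3.36 with an adjusted p of 0.0985. Gdf6, a related ligand, went from 0.0229 and 0 FPKM to 0.845 and 4.81 (1.69 ± 0.39, limma adjusted p = 0.0151), with a difference of 0.87 without TSC_BMP4 replicate 2 and an adjusted p of 0.0517 without TSC replicate 2.

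Of 12 receptors and SMADs 4 fell, against 5.74% of all genes, with a median of -0.42. Fewer passed without TSC_BMP4 replicate 1 or either TSC replicate, and more without TSC_BMP4 replicate 2. The median was -0.73 and -0.58 without TSC replicates 1 and 2, and -0.40 and -0.74 without TSC_BMP4 replicates 1 and 2. With all libraries 5 of the 12 had an unadjusted p under 0.05. Bmpr1a, the main type I receptor for BMP4, was at 9.47 and 11.5 FPKM without BMP4 and at 3.72 and 4.80 with it (-1.13 ± 0.31, limma adjusted p = 0.0318). Smad1, a signal transducer, was at 8.59 and 5.31 against 1.43 and 2.70 FPKM (-1.38 ± 0.41, limma adjusted p = 0.0458). The co-receptors Rgma and Rgmb were the others, and Smad4 and Smad5 overlapped between the groups. Of 7 antagonists only Fstl1, a secreted follistatin-like protein, passed, at 1.51 and 2.04 against 5.54 and 6.05 FPKM, and it lost the call whichever library was left out.

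Several regulators of the trophoblast stem cell state, among them Eomes, Esrrb and Nr0b1, were near 0 in untreated TSC and rose with BMP4. Of 32 listed genes of this state and of extraembryonic ectoderm 28 could be tested. Of these 11 rose and 3 fell, with a median of 1.15, against 6.39% and 5.74% of all genes. Bmp4, Id2 and Spry4 are among the 11 and also on the lists of BMP and FGF genes. Eomes, a T-box factor needed for trophoblast stem cells, went from 0.219 and 0.0844 FPKM to 14.3 and 13.7. The treated libraries were close to each other and far above the untreated ones, 3.71 ± 0.35 on the log2 scale (limma adjusted p = 7.95e-05), and the call held with each library left out.

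Elf5, an ETS factor of the same circuit, was at 5.51 and 11.6 FPKM without BMP4 and at 153 and 130 with it. Its log2 difference of 3.97 ± 1.12 passed with all libraries (limma adjusted p = 0.0363) and failed with any 1 of the 4 left out, at adjusted p of 0.0704 to 0.158. Esrrb, an orphan nuclear receptor that maintains these cells, went from 0 and 0.14 FPKM to 7.79 and 9.83 (3.19 ± 0.68, limma adjusted p = 0.0105; 0.0555 without TSC_BMP4 replicate 1). Sox2, a partner of Esrrb, went from 0 and 0.054 FPKM to 2.92 and 7.89 (2.52 ± 0.61, limma adjusted p = 0.0192), and kept the call only when TSC_BMP4 replicate 1 was the library left out.

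Nr0b1, which encodes the nuclear receptor DAX1, stood at 0.0476 and 0.0705 FPKM without BMP4 and at 26.8 and 141 with it (5.89 ± 0.69, limma adjusted p = 0.000379). Ddah1, an enzyme that breaks down methylated arginines, went from 1.94 and 1.35 FPKM to 78.6 and 111 (5.17 ± 0.52, limma adjusted p = 0.000105). Both held with each library left out, while the treated libraries differed more among themselves for Nr0b1 than for Ddah1. Ly6a, a surface antigen, rose from 1.88 and 2.08 to 127 and 26.3 FPKM, and without TSC_BMP4 replicate 1 its adjusted p was 0.0584.

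Not every gene of this list rose. Cdx2, the caudal factor that specifies trophectoderm, was at 0 and 3.89 FPKM without BMP4 and at 2.73 and 6.24 with it, which overlap (limma adjusted p = 0.214). Fgfr2, the receptor for FGF4, also overlapped, at 3.03 and 13.3 against 11.7 and 17.4 FPKM. The members that fell were Arid3a, Ets2 and Furin; Arid3a, a DNA-binding regulator of trophectoderm, went from 30.3 and 21.9 to 6.56 and 7.62 FPKM. Leaving out TSC_BMP4 replicate 1, the list had 5 genes called higher and 0 lower, with a median of 1.30, and leaving out TSC replicate 1 it had 6 and 0, with a median of 0.99.

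**Figure D3:**
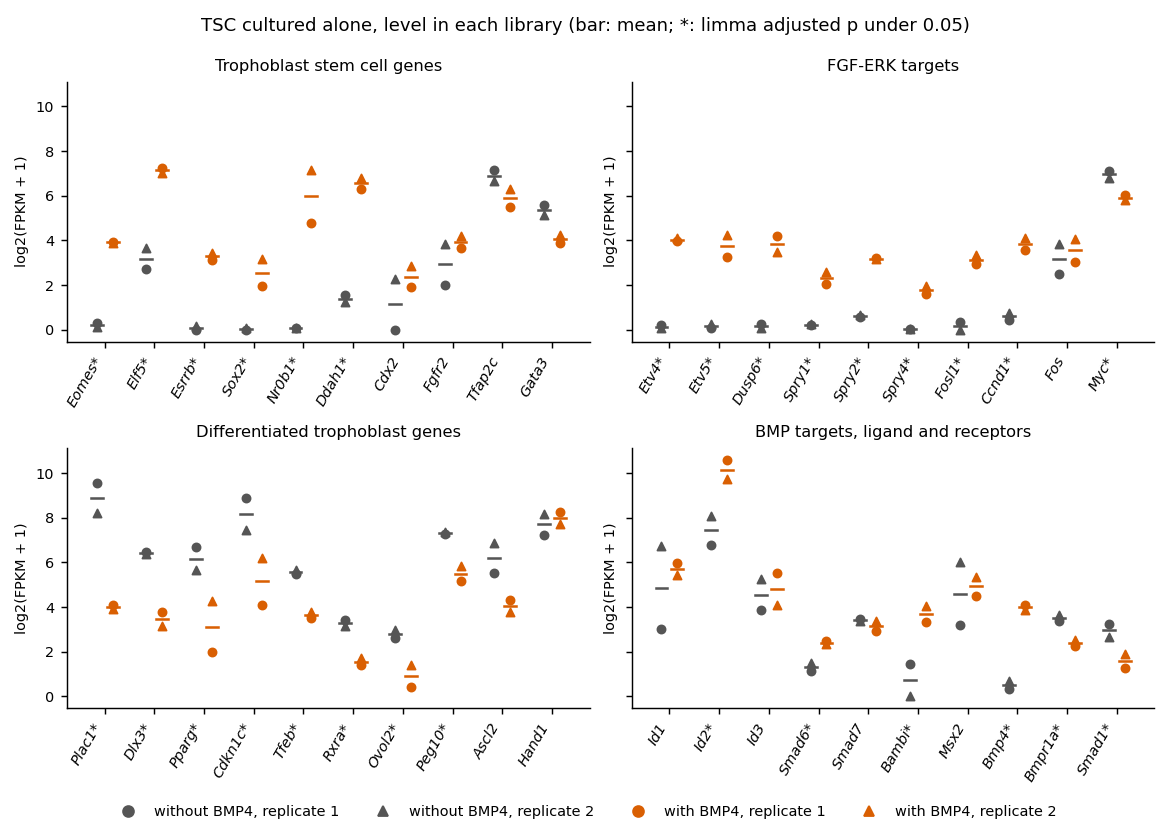
Level of 40 genes as log2(FPKM + 1) in each of the 4 libraries of TSC cultured alone, in 4 panels by role; gray is without BMP4, orange with BMP4, circles are replicate 1, triangles replicate 2, bars the mean of 2, and an asterisk marks a limma adjusted p under 0.05. Eomes, Nr0b1 and Etv4 separate without overlap, Plac1 and Dlx3 are lower in both treated libraries, and the treated values of Id1 lie between the untreated ones.

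Of 18 tested targets of FGF and ERK signalling, 10 rose and 1 fell, against 6.39% and 5.74% of all genes. The median difference was 1.91. Etv4, an ETS factor switched on by ERK, was at 0.143 and 0.0528 FPKM without BMP4 and at 14.6 and 16.1 with it. Etv5, its close relative, was at 0.064 and 0.208 FPKM without BMP4 and at 8.64 and 18.0 with it. Neither gene overlapped between groups, with log2 differences of 3.90 ± 0.37 and 3.58 ± 0.37 (limma adjusted p = 7.95e-05 and 0.000141).

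The feedback inhibitors of the same pathway rose too. Dusp6, the phosphatase that removes phosphate from ERK, went from 0.206 and 0.0433 FPKM to 17.5 and 10.0 (3.67 ± 0.43, limma adjusted p = 0.000401). Spry1, a Sprouty inhibitor, went from 0.145 and 0.2 FPKM to 3.08 and 4.94 (2.07 ± 0.27, limma adjusted p = 0.000669), and Spry2, Spry4 and Spred2 were also called. Ccnd1, which encodes cyclin D1, went from 0.356 and 0.682 FPKM to 11.0 and 16.2 (3.25 ± 0.53, limma adjusted p = 0.00257). Etv4, Etv5, Dusp6, Spry1 and Ccnd1 kept the call with each library left out, and with 1 library left out 8 or 9 of the 18 were called higher and 0 lower. Myc went the other way, from 138 and 112 to 63.9 and 55.2 FPKM (-1.05 ± 0.32, limma adjusted p = 0.0485), and lost the call whichever library was left out. Fos overlapped between the groups. FGF4 was in the medium of all 4 libraries, and Fgf4 itself was listed at 0 in each.

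Genes of differentiated trophoblast fell or did not pass. Of 14 genes of syncytiotrophoblast and labyrinth 5 fell and 0 rose (median -0.93). Of 10 genes of ectoplacental cone and spongiotrophoblast 3 fell and 0 rose (median -1.46). Over all genes 5.74% fell and 6.39% rose. Plac1, an X-linked placental gene, was at 745 and 293 FPKM without BMP4 and at 16 and 14.2 with it. Both treated libraries were far below both untreated ones, -4.86 ± 0.78 on the log2 scale (limma adjusted p = 0.00233), with each library left out in turn at -4.19 to -5.54.

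Dlx3, a homeobox factor of the labyrinth, went from 87.2 and 81.0 FPKM to 12.7 and 7.93 (-2.94 ± 0.30, limma adjusted p = 0.000137). Pparg, a nuclear receptor needed for the labyrinth, went from 102 and 49.5 FPKM to 2.91 and 18.2 (-3.06 ± 0.59, limma adjusted p = 0.00676). The treated libraries differed among themselves for Pparg, and without TSC_BMP4 replicate 1 its difference was -1.91 with an adjusted p of 0.0514. Its partner Rxra fell by 1.72 ± 0.28, and Tfeb, a factor required for placental vessels, fell by 1.96 ± 0.37 (limma adjusted p = 0.00249 and 0.00546).

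Cdkn1c, the imprinted cell cycle inhibitor p57, was at 480 and 173 FPKM without BMP4 and at 16.2 and 72.4 with it (-3.03 ± 0.69, limma adjusted p = 0.015). It lost the call without TSC_BMP4 replicate 1 (-1.98, adjusted p = 0.142) and without TSC replicate 1 (adjusted p = 0.0944). Ascl2, a regulator of spongiotrophoblast, was lower in both treated libraries, 19 and 12.6 against 45.3 and 114 FPKM, and missed the threshold (limma adjusted p = 0.0551).

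Of 10 tested giant cell genes 0 were called by limma in either direction, with a median of -0.55; 2 had an unadjusted p under 0.05, both lower. Hand1, which drives giant cell formation, overlapped at 150 and 288 against 301 and 211 FPKM. The X-linked homeobox genes Rhox6 and Rhox9 were the most abundant of the list, Rhox6 at 8183 and 4481 FPKM without BMP4 and at 846 and 1562 with it (limma adjusted p = 0.283). With TSC_BMP4 replicate 1 left out, the counts of genes that fell were 3 of 14 for syncytiotrophoblast and labyrinth and 1 of 10 for spongiotrophoblast, and the medians were -0.81 and -1.14.

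Epithelial genes were lower as well. Of 26 tested junction and keratin genes 7 fell and 0 rose, against 5.74% and 6.39% of all genes, and the median was -1.06. Both treated libraries were below both untreated ones for 19 of the 26, against 22.5% of all genes. Krt18, a keratin of simple epithelia, had a log2 difference of -1.72 ± 0.44 at the levels given above (limma adjusted p = 0.0248), and Krt19 fell by 2.51 ± 0.73 (limma adjusted p = 0.0413). Tjp3, a tight junction scaffold, was at 29.1 and 28.2 FPKM without BMP4 and at 7.10 and 5.20 with it (-2.07 ± 0.40, limma adjusted p = 0.00675). Krt8, the keratin that pairs with Krt18, was at 2932 and 1367 FPKM without BMP4 and at 282 and 569 with it (limma adjusted p = 0.0525). The list had 2 genes called lower without TSC_BMP4 replicate 1 (median -1.03) and 3 without either untreated library, and the adjusted p of Krt18 was 0.102 without TSC_BMP4 replicate 1, 0.136 without TSC replicate 1 and 0.0762 without TSC_BMP4 replicate 2.

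**Figure D4:**
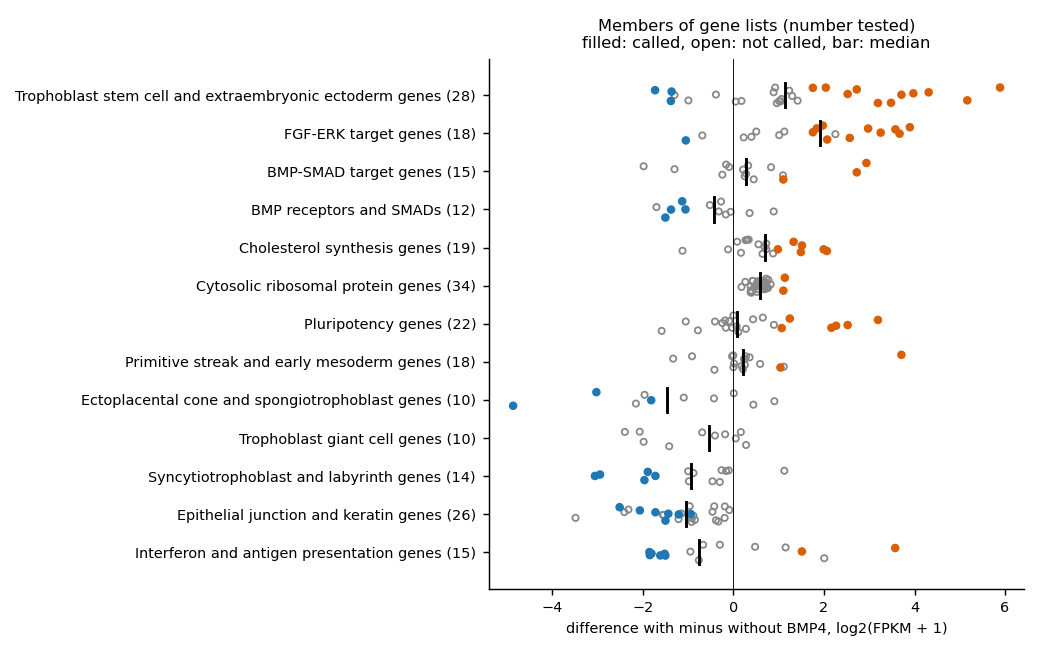
Difference with minus without BMP4 on the log2(FPKM + 1) scale for the members of 13 gene lists, 1 point per tested gene, with the number tested after each name; filled points are called higher (orange) or lower (blue), open points are not called and the bar is the median. The FGF-ERK targets (median 1.91) and the trophoblast stem cell genes (1.15) lie highest and the spongiotrophoblast genes (-1.46) lowest.

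Of 19 cholesterol synthesis genes 6 rose and 0 fell (median 0.69), against 6.39% and 5.74% of all genes. Without TSC_BMP4 replicate 1 the median of the list was 1.01. Idi1, which makes dimethylallyl diphosphate, went from 10.2 and 29.9 FPKM to 64.9 and 91.0 (2.06 ± 0.36, limma adjusted p = 0.00402). The list leaned on the untreated libraries: its median was 0.11 without TSC replicate 1 and 1.16 without TSC replicate 2, with 2 and 10 genes called higher; without TSC_BMP4 replicate 2 it was 0.38, with 3 called higher and 1 lower. Among 25 glycolysis and hypoxia genes 2 rose and 4 fell; the counts were 0 and 4 without TSC replicate 1 and 2 and 2 without TSC replicate 2 or TSC_BMP4 replicate 1. Slc2a1, the glucose transporter GLUT1, fell from 835 and 717 FPKM to 209 and 259 (-1.73 ± 0.27, limma adjusted p = 0.00214), and the call held with each library left out. Of 23 nuclear subunits of oxidative phosphorylation 0 were called by limma and 0 had an unadjusted p under 0.05, with a median of -0.08. Quantile normalization called 4 of them lower (median -0.37), rescaled totals 3 (median -0.28), and without TSC_BMP4 replicate 2 the median was 0.06 with 2 called lower.

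Of 34 cytosolic ribosomal protein genes 29 were above both untreated libraries in both treated ones, against 25.5% of all genes, but only Rpl22 and Rpl37 passed. The median difference was 0.58; it was 0.38 both after quantile normalization, with 9 calls, and with rescaled totals, with 10. Left out, TSC_BMP4 replicate 1 gave a median of 0.30 and 0 calls, and replicate 2 a median of 0.92 and 24 calls. Without either untreated library, 1 gene passed.

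Interferon and antigen presentation genes went in opposite directions. Of 15 tested 6 fell and 2 rose, against 5.74% and 6.39% of all genes. Rsad2, an antiviral enzyme, went from 1.77 and 3.06 FPKM to 0.0492 and 0.333 (limma adjusted p = 0.00227). B2m, the light chain of class I antigens, rose from 89.4 and 172 to 374 and 339 FPKM, while the heavy chain gene H2-D1 fell from 516 and 311 to 68.9 and 178. Leaving out TSC_BMP4 replicate 1, the list had 1 higher and 2 lower calls.

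Of 15 immediate early genes 5 fell and 1 rose, against 5.74% and 6.39% of all genes. Jund, a subunit of AP-1, was at 33.9 and 26.0 FPKM without BMP4 and at 7.19 and 7.35 with it (-1.89 ± 0.35, limma adjusted p = 0.00525). Of those 15, 1 was called lower without TSC_BMP4 replicate 1, and 3 without TSC replicate 2. Atf3, a stress-induced factor, fell by 2.36 ± 0.49 (limma adjusted p = 0.00951, and 0.0835 without TSC_BMP4 replicate 1), and Asns, which makes asparagine, rose by 1.95 ± 0.30 (limma adjusted p = 0.00181). Of 28 cell cycle genes 3 rose (Bub1, Pcna and Cenpa) and 0 fell, a share called near the 12.1% of all genes, with 1 called higher without TSC_BMP4 replicate 1, 2 without TSC replicate 1 and 5 without TSC replicate 2. Among 8 DNA methylation enzymes, Dnmt3b, a de novo methyltransferase, went from 8.90 and 3.92 FPKM to 40.1 and 49.7 (2.71 ± 0.46, limma adjusted p = 0.00345). Dnmt1, the maintenance enzyme, went from 45.4 and 34.9 FPKM to 9.19 and 14.3 (-1.71 ± 0.27, limma adjusted p = 0.00225). Both held with each library left out.

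Pou5f1, Nanog and T were at or below 1.58 FPKM in all 4 libraries, while other pluripotency genes such as Utf1 were present, as given above. Of 22 pluripotency genes 6 rose and 0 fell, against 6.39% and 5.74% of all genes. The 6 were Sox2, Esrrb, Klf5, Fbxo15, Dppa4 and Lin28a, the first 2 of which are also on the trophoblast stem cell list. The count was 3 without TSC_BMP4 replicate 1, 2 without TSC_BMP4 replicate 2 and 2 without TSC replicate 1. Klf5, a Krüppel-like factor, went from 2.52 and 3.21 FPKM to 14.6 and 21.0 (2.27 ± 0.32, limma adjusted p = 0.00116). Pou5f1, the core pluripotency factor, stayed at 0.397 and 0.754 FPKM with BMP4. T, the brachyury factor of the primitive streak, was at 0.924 and 0.49 FPKM without BMP4 and at 0.381 and 0.162 with it, and of 18 streak and early mesoderm genes only Eomes and Gata4 rose. Of 12 tested primordial germ cell genes 0 were called by limma, and 1 had an unadjusted p under 0.05, lower.

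Of 10 endoderm genes 5 rose (Dab2, Gata4, Sparc, Apoe and Amn), and 1 to 3 rose with a library left out; 2 were called lower without TSC_BMP4 replicate 2. Over all genes, with every library kept, 6.39% rose and 5.74% fell. Dab2, an endocytic adaptor, went from 0.0212 and 0.0896 FPKM to 6.04 and 6.14 (2.75 ± 0.47, limma adjusted p = 0.00355), and held with each library left out. Apoe, a lipid carrier, was at 1.28 and 0.814 FPKM without BMP4 and at 6.21 and 77.7 with it, and its difference was 5.27 without TSC_BMP4 replicate 1 and 1.83 without replicate 2. Gata6, Sox17 and Sox7, which define primitive endoderm, were at most 0.292 FPKM in the 4 libraries. The part of other cells in these values was not tested.

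The largest differences included genes outside these lists. Duoxa2, a maturation factor for the oxidase DUOX2, went from 0 and 0.245 FPKM to 59.2 and 49.5 (5.63 ± 0.36, limma adjusted p = 5.29e-06). Inpp1, an inositol phosphatase, went from 0.106 and 1.08 FPKM to 59.3 and 76.1 (5.49 ± 0.32, limma adjusted p = 4.83e-06). Neither gene overlapped between groups, and both kept the call with each library left out. Car2, a carbonic anhydrase, was at 14 and 22.8 FPKM without BMP4 and at 366 and 469 with it (4.46 ± 0.39, limma adjusted p = 6.04e-05). Mest, an imprinted gene, rose by 4.93 ± 0.65, and Foxh1, the partner of SMAD2 in Nodal signalling, by 4.11 ± 0.45 (limma adjusted p = 0.000844 and 0.000231). Tmem98, Morc4, Mpped2, Paip1, Fuom, Sord and Aard were also among the 15 largest, with differences of 4.06 to 4.58.

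On the lower side, Serpinb9b, a granzyme-type protease inhibitor, went from 76.5 and 39.9 FPKM to 2.65 and 3.59 (-3.78 ± 0.35, limma adjusted p = 7.47e-05). Slco4a1, an organic anion transporter, went from 19.7 and 14 FPKM to 0.532 and 0.557 (-3.51 ± 0.28, limma adjusted p = 3.08e-05). Elf3, an epithelial ETS factor, fell by 3.10 ± 0.51 and Vgll1, a TEAD cofactor of trophoblast, by 3.02 ± 0.38 (limma adjusted p = 0.00291 and 0.000607). Dkkl1, Ndrg1, Ankrd2, Dlx4os and Rasal1 completed the genes that kept the call with each library left out. Trp53i11 and Mbnl3, also among the 15 largest, kept it in 1 of 4.

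Whether the response differed from that of the other cell type cultured alone was tested as an interaction with the BMP4 effect in iPSC, which shares no library with it. The effects differed for 374 genes (2.79%), 191 with a higher and 183 with a lower difference in TSC (1.42% and 1.37%). BMP4 in iPSC alone called 8 genes (0.0597%), 3 higher (0.0224%) and 5 lower (0.0373%), and none of these 8 was among the 1625. In that comparison 842 genes had an unadjusted p under 0.05. With 12.1% of genes called in TSC, 8 genes are too few for the lack of overlap to be read. Counts of different groups are also not like for like, since 1 estimate of the spread served all groups. Replicates differed by more than 2-fold in 454 genes for untreated iPSC and 651 for treated iPSC, against 2083 and 1262 for TSC. Etv4 was at 13.0 and 9.30 FPKM in iPSC without BMP4 and at 8.25 and 6.82 with it, and its effects differed by 4.39 ± 0.52 (limma adjusted p = 0.00134). In iPSC the Id genes were higher in both treated libraries: Id1 was at 44.9 and 65.2 against 303 and 332 FPKM. The effects of BMP4 on Id1 differed by -1.70 ± 1.24 and those on Id2 by 0.67 ± 0.59, neither past the threshold (limma adjusted p = 0.498 and 0.58). The median over the 15 tested BMP-SMAD targets was 1.71 in iPSC and 0.28 in TSC, but limma called 0 of them in iPSC and 3 in TSC. Krt18, where iPSC went from 83.5 and 58.9 to 163 and 415 FPKM, had effects that differed by -3.60 ± 0.62 (limma adjusted p = 0.0126).

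The count of 374 rested on single libraries. It was 148 without TSC_BMP4 replicate 1, 147 without iPS_BMP4 replicate 1, and 63, 58 and 56 without iPS replicate 2, iPS replicate 1 and iPS_BMP4 replicate 2. An interaction estimated with only the 8 libraries of the 4 groups compared called 165 genes.

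The same test against the TSC part of assembled structures found 235 genes (1.75%), 136 higher and 99 lower (1.01% and 0.738%). BMP4 in the assembled TSC part called 67 genes (0.5%), 50 higher (0.373%) and 17 lower (0.127%). Of the 67, 33 were also among the 1625, which is 49.3% against 12.1% of all genes tested. These 33 are 2.03% of the 1625, and 31 of them had the same direction. In the assembled part Eomes was already at 11.2 and 30.5 FPKM without BMP4 and at 29.2 and 33.8 with it, and its effects differed by 2.98 ± 0.50 (limma adjusted p = 0.014, and 0.0552 without TSC_BMP4 replicate 1). Etv4 was at 23.7 and 17.1 FPKM there without BMP4 and at 22.9 and 16.8 with it, a difference between effects of 3.93 ± 0.52 (limma adjusted p = 0.00487). Id2 was at 1080 and 1430 against 859 and 1226 FPKM, a difference between effects of 3.00 ± 0.59 (limma adjusted p = 0.0292, and 0.106 without TSC_BMP4 replicate 1). Elf5 was at 116 and 159 FPKM in the assembled part without BMP4, against 153 and 130 in TSC alone with BMP4. Plac1 was at most 4.86 FPKM in the 4 assembled libraries.

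Nr0b1 was higher in the treated libraries of both kinds of TSC. It was at 0.373 and 2.99 FPKM in the assembled part without BMP4 and at 80.5 and 31.9 with it, and the difference between effects, 1.42 ± 0.97, did not pass (limma adjusted p = 0.491). The 235 became 47 without TSC_BMP4 replicate 1, 47 without ITS_TSC replicate 1, 70 and 151 without ITS_TSC_BMP4 replicates 1 and 2, 144 without ITS_TSC replicate 2 and 469 without TSC_BMP4 replicate 2. With only the 8 libraries compared it was 12, and with totals rescaled 73 were higher and 117 lower.

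**Figure D5:**
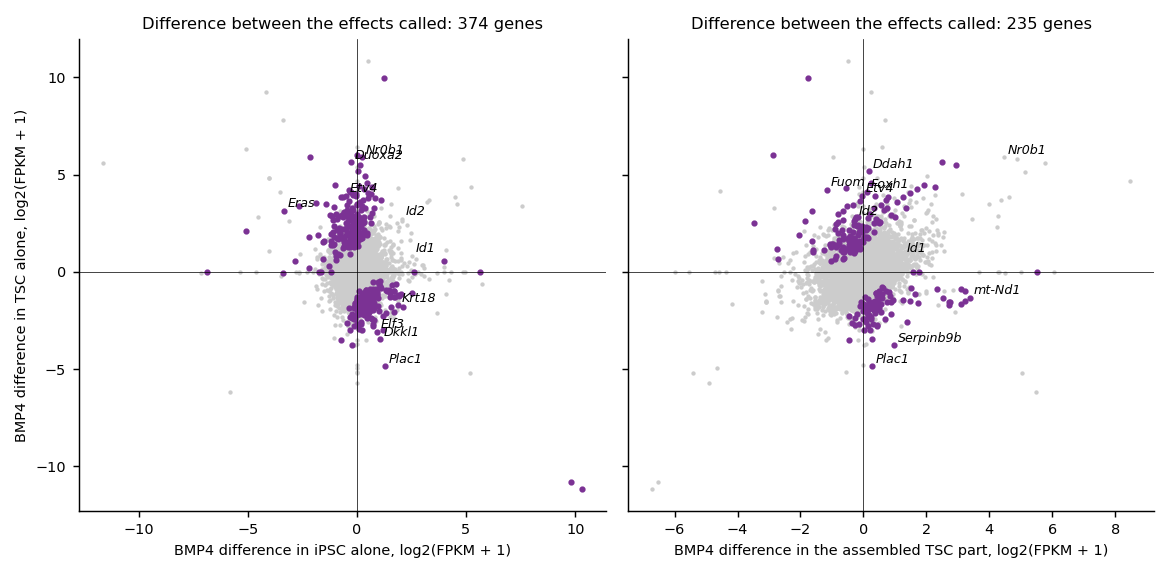
Difference with minus without BMP4 on the log2(FPKM + 1) scale in TSC cultured alone (vertical) against the same difference in iPSC cultured alone (left) and in the assembled TSC part (right), 1 point per gene for 13406 genes. Purple points are the 374 and 235 genes whose effects differ by the limma interaction test; Plac1 lies low and Etv4 high in TSC alone with differences near 0 on the horizontal axis of the right panel.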

How the data were processed

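RNA was measured in 16 mouse libraries by Smart-seq2, and 4 of them (TSC alone with and without BMP4, 2 each) are described here. The authors deposited 1 table of FPKM values for 31663 genes; per the submitters' processing notes the tools were CASAVA with TopHat2 and the builds hg19 and mm9, each without a stated role. For FPKM, program and annotation were not given in the sources used here; depth is unknown, so no counting interval is given and reads shared by paralogs or overlapping genes cannot be checked.

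Genes at 1 FPKM or more in at least 2 libraries (13406) were taken as log2(FPKM + 1), a scale that understates the change of low genes, and modelled by limma 3.58.1 (R 4.3.3) as 8 group means with an intensity trend, 8 residual degrees of freedom. Tests were two-sided, Benjamini-Hochberg adjusted over all genes, threshold 0.05; a called gene is past it. The fit was tested on simulated data. Named genes were up to 15 per direction with the largest difference among called genes without overlap and at 5 FPKM or more on average in the higher group (names of pseudogenes, snoRNAs, microRNAs and predicted genes apart), up to 6 per direction by that rule for each interaction, up to 4 members per list by p, and 33 named whatever their result. Other list members were named after their values were seen, and 2 genes that the rule names are not reported here. The comparison, the 40 gene lists and the named genes were chosen with earlier results of these data known. Promoters are from RefSeq, matched by symbol (3 of 3), and transcript lengths from the reference annotation. Alternatives were another pseudocount, no filter, other scalings, quality weights, a replicate block, fits of fewer groups and leaving out each library.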

Additional observations from a re-analysis of the deposited data

Results flagged for a closer look

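Genes whose BMP4 effect in TSC alone differed from that in another group by the limma interaction test were singled out, 374 against iPSC alone and 235 against the assembled TSC part. Each value below is the difference between effects on the log2(FPKM + 1) scale.

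Against iPSC alone the largest positive differences were 6.49 for Eras, a Ras of pluripotent cells, 5.91 for Duoxa2, 5.66 for Nr0b1, 5.45 for Car2, 5.41 for Pcsk1n and 5.33 for Inpp1. Eras went from 0 and 0.131 to 10.0 and 6.98 FPKM in TSC and from 28.8 and 26.6 to 2.78 and 1.09 in iPSC, higher in both treated TSC libraries and lower in both treated iPSC libraries. The negative differences were -6.13 for Plac1, -4.52 for Dkkl1, -4.00 for Elf3, -3.93 for Peg10 and -3.79 for Rab20. Of these genes Pcsk1n, Dkkl1, Elf3, Peg10 and Rab20 lost the call without TSC_BMP4 replicate 1.

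Against the assembled TSC part the positive differences were 5.39 for Fuom, 4.99 for Ddah1, 4.88 for Ly6a, 4.79 for Eras, 4.47 for Mrpl23 and 4.32 for Tmem98. Ddah1 was at 72.9 and 55.9 FPKM in the untreated assembled part and at 96.2 and 54.5 with BMP4. The negative differences were -5.13 for Plac1 and -4.75 for Serpinb9b, and 4 mitochondrially encoded genes, -4.75 for mt-Nd4, -4.75 for mt-Nd1, -4.74 for mt-Atp6 and -4.46 for mt-Cytb. Of these genes Ly6a, Eras, Mrpl23, Plac1, mt-Nd4 and mt-Cytb lost the call without TSC_BMP4 replicate 1. mt-Nd1 was at 7879 and 6456 FPKM in untreated TSC and at 2222 and 3537 with BMP4, but at 1251 and 771 in the untreated assembled part and at 11877 and 9075 with BMP4. The mitochondrial share of the total followed the same pattern, 0.871% and 0.598% in the untreated assembled libraries and 6.48% and 3.62% with BMP4.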

How the results depend on the processing

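All 1625 called genes kept their direction under every alternative run, though many of these runs could not change it, as given above. Values that did not pass did not all keep theirs: without TSC replicate 1 the median of the BMP-SMAD targets went from 0.28 to -0.20 and the difference of Id1 from 0.83 to -1.02. The balance of 856 higher and 769 lower became 676 and 1006 with rescaled totals, 568 and 769 without TSC replicate 1, and 852 and 480 without TSC replicate 2. Of 182 named genes 102 were called, and 60 of those kept the call without TSC_BMP4 replicate 1, 89 with a pseudocount of 0.1, 99 with quantile normalization and 0 with only the 4 libraries. The count of 1625 became 830 with no filter, 428 with library quality weights, 3 with a fit of only the libraries compared, 378 with a fit of only the 8 libraries of TSC origin, and 569 to 1641 with a library left out. A pseudocount of 0.1 gave 964 higher and 557 lower. The count of 374 became 208 with no filter, 165 with a fit of only the libraries compared, and 56 to 426 with a library left out. The count of 235 became 102 with no filter, 47 with weights, 134 with a replicate block, 12 with a fit of only the libraries compared and 47 to 469 with a library left out. The totals rescaled and the fit of 8 libraries were chosen after seeing the data. A median over all genes of -0.18 for the assembled comparison came with rescaled totals, against 0.06. The cause of these changes was not tested. The replicate block gave 1499 calls in TSC alone, 1449 of them among the 1625. The deviations of same-numbered TSC and TSC_BMP4 libraries had a correlation of -0.018 across genes. This showed no strong shared deviation, but it cannot tell whether the numbers mark paired samples, which no label states. Depth is unknown and 2 libraries a group limit the precision.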

Other observations

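The counts of the other gene groups in TSC cultured alone stand beside 12.1% of all genes called, 6.39% higher and 5.74% lower. Of 13 Nodal pathway genes Foxh1 rose, of 13 formative epiblast genes Dnmt3b and Zic5 rose, and of 8 retinoic acid genes Crabp1, a retinoic acid carrier, rose; these 4 genes kept the call with each library left out. Among 4 tested endothelial and blood genes Gata1, an erythroid factor, went from 0.735 and 0.199 FPKM to 6.53 and 6.52 (2.38 ± 0.32 on the log2 scale, limma adjusted p = 0.000852), and its call held in the same way. Of 9 Notch genes Hes1, a repressor switched on by Notch, rose from 0.242 and 0.719 FPKM to 9.15 and 5.33 (limma adjusted p = 0.00500, and 0.0557 without TSC_BMP4 replicate 1). Of 14 Wnt targets Ccnd1 rose and Myc fell. Of 8 genes of extraembryonic mesoderm and amnion Bmp4 and Wnt6 rose, but 0 were called by limma without TSC replicate 1 or without TSC_BMP4 replicate 1, and with all libraries 4 of the 8 had an unadjusted p under 0.05.

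Of 16 p53 targets and apoptosis genes 3 rose and 0 fell: Perp, a desmosomal protein, and the BH3-only genes Bcl2l11 and Pmaip1. Perp was at 71.2 and 111 FPKM without BMP4 and at 212 and 397 with it. Without TSC replicate 1 or TSC_BMP4 replicate 2, 0 of the 16 were called by limma, and without TSC replicate 2 there were 4; with all libraries 4 had an unadjusted p under 0.05. Of 22 imprinted genes, 3 were called, near the share of all genes: Mest rose and kept the call with each library left out, and Cdkn1c and Peg10 fell, neither of which was called without TSC_BMP4 replicate 1. Of 8 cell cycle inhibitors Cdkn1c alone fell.

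Of 18 integrin and matrix genes Sparc and Itga7 rose and Itga6 fell, and of 12 mesenchymal transition genes Sparc rose and Mmp14 fell. Sparc, Itga6 and Mmp14 kept the call with 1 of the 4 libraries left out and Itga7 with 2. Of 18 transporters Slc38a2 rose and Slc2a1 and Slc38a4 fell, and Slc2a1 kept the call with each library left out, Slc38a4 with 3 and Slc38a2 with 1. Of 17 integrated stress response genes Asns and Wars rose and Atf3 fell; Asns kept the call with each library left out, Atf3 with 3 and Wars with 0. In limma 0 of 14 Hippo-YAP targets, 16 heat shock genes, 4 fibroblast and 4 neural genes were called, and 4 of the Hippo-YAP targets and 0 of the others had an unadjusted p under 0.05.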
